A study of Mus musculus with 11 samples.

Results

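The RFX and other ciliary transcription factors examined here were 10 genes chosen by name, Rfx1, Rfx2, Rfx3, Rfx4, Rfx5, Rfx7, Foxj1, Mcidas, Gmnc and E2f4, out of 21684 genes in the deposited table. All 10 had a row in the table, and 8 of them passed the filter on low counts along with 13332 genes in all. Rfx4 and Gmnc did not pass and were not tested. Their levels came from RNA-seq of NIH/3T3, an established line of mouse embryonic fibroblasts, in 4 genotypes: WT (2 libraries), Xap5 KO, Nono KO and Sox5 KO (3 libraries each). Every group, WT included, was grown in medium with 10% calf serum for 24 h and then kept without serum for 24 h, a treatment under which these cells leave the cell cycle and build a primary cilium. The labels name no clone and do not give the method of knockout, so each knockout was treated as 1 line, and the p-values measure only the spread between these libraries, which may be technical. Xap5 is the older name of the mouse gene Fam50a, an equivalence taken from general knowledge.

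RFX proteins bind DNA through a winged-helix domain and recognise the X-box, an inverted repeat found in the promoters of many genes for building cilia. RFX2, RFX3 and RFX4 are best known for cilia, RFX1 is a broadly expressed relative, and RFX5 and RFX7 form a separate branch in which RFX5 switches on antigen presentation genes. FOXJ1 drives motile cilia, while multicilin (Mcidas) and its relative Gmnc act with E2F4 to start multiciliated cell differentiation. In fibroblasts, which carry a solitary non-motile cilium, E2F4 is better known as a repressor of cell cycle genes in resting cells.

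Depth ran from 30205878 to 43498383 counts per library, and mitochondrial genes took 6.06% to 10.3% of them. Fam50a stood at 12.1% of its WT level in Xap5 KO, Nono at 8.99% in Nono KO, and Sox5 at 28.1% in Sox5 KO. Sox5 was also at 28.7% of WT in Xap5 KO and at 16.3% in Nono KO, so its level does not set the Sox5 KO libraries apart or check their label, and an opposite-strand gene shares exonic bases with it. Summed over 10 fibroblast markers, levels were 23937 to 23994 CPM (counts scaled to library depth) in WT and 47668 to 52348 in Nono KO, with 18387 to 19693 in Xap5 KO and 19669 to 20166 in Sox5 KO. The 12 epithelial and multiciliated markers summed to 1.00 to 5.57 CPM, with Krt8, Krt18, Sntn and Fam183b at 0 in all libraries, and the 10 blood and endothelial markers to 2.42 to 11.5 CPM, with Cd3e and Tie1 at 0 in all. The 9 tested genes of chromosome Y summed to 8020 and 8978 counts in the WT libraries and to at most 16 in any knockout library. This shared difference between WT and all 3 knockout lines, and the knockouts themselves, cannot be told apart in any comparison with WT.

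The WT cells expressed 6 of the 10 factors at a readily measured level. Per kilobase of longest transcript, which allows genes to be compared, mean WT levels were 30.1 CPM for E2f4, 8.26 for Rfx1, 6.16 for Rfx7, 4.61 for Rfx5, 2.82 for Rfx3 and 0.773 for Rfx2. None of these 6 overlapped its neighbour in this order across the 2 WT libraries. Foxj1 (0.239) and Mcidas (0.179) came next and overlapped each other, and Rfx4 and Gmnc were at 0 in both WT libraries. The same order held for the top 6 in Xap5 KO and Sox5 KO. In Nono KO, Rfx7 (9.10 CPM per kilobase) lay above Rfx1 (7.03) without overlap.

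In WT, then, the ciliary RFX genes were represented mainly by Rfx1 and Rfx3, with Rfx2 low and Rfx4 not detected. Rfx3 was the one of the 8 tested factors called lower in all 3 knockouts, at 69.97% ± 10.3 of WT with Xap5 knocked out, 45.4% ± 4.02 with Nono and 38.8% ± 3.23 with Sox5 knocked out (SD, n = 3 each). Rfx7 was higher in Nono KO and lower in Sox5 KO, and E2f4 was higher in Sox5 KO and slightly lower in Xap5 KO. Rfx2 and Rfx5 were not called in any comparison, and the low-count genes Foxj1 and Mcidas were not called against WT either. In a bulk sample, fewer cells with a transcript and less of it per cell cannot be told apart.

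Of the 8 tested factors, 2 were called in Xap5 KO against WT, both lower. The test was the quasi-likelihood test of edgeR, and a call means a Benjamini-Hochberg adjusted p under 0.05. Across all tested genes, 45.5% were called in that comparison, 23.2% higher and 22.3% lower. In Nono KO 3 factors were called, 1 higher and 2 lower, against 48.6% of all genes (23.5% higher, 25.1% lower). In Sox5 KO 3 were called, 1 higher and 2 lower, against 60.9% of all genes (30.6% higher, 30.3% lower). These counts, 2, 3 and 3 of 8, are no larger a share than the background of each comparison. The median log2 fold change of the 8 was -0.13, -0.18 and -0.21 in Xap5, Nono and Sox5 KO, beside medians of 0.00, -0.02 and -0.01 over all tested genes. The 3 comparisons share the same 2 WT libraries.

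**Figure D1:**
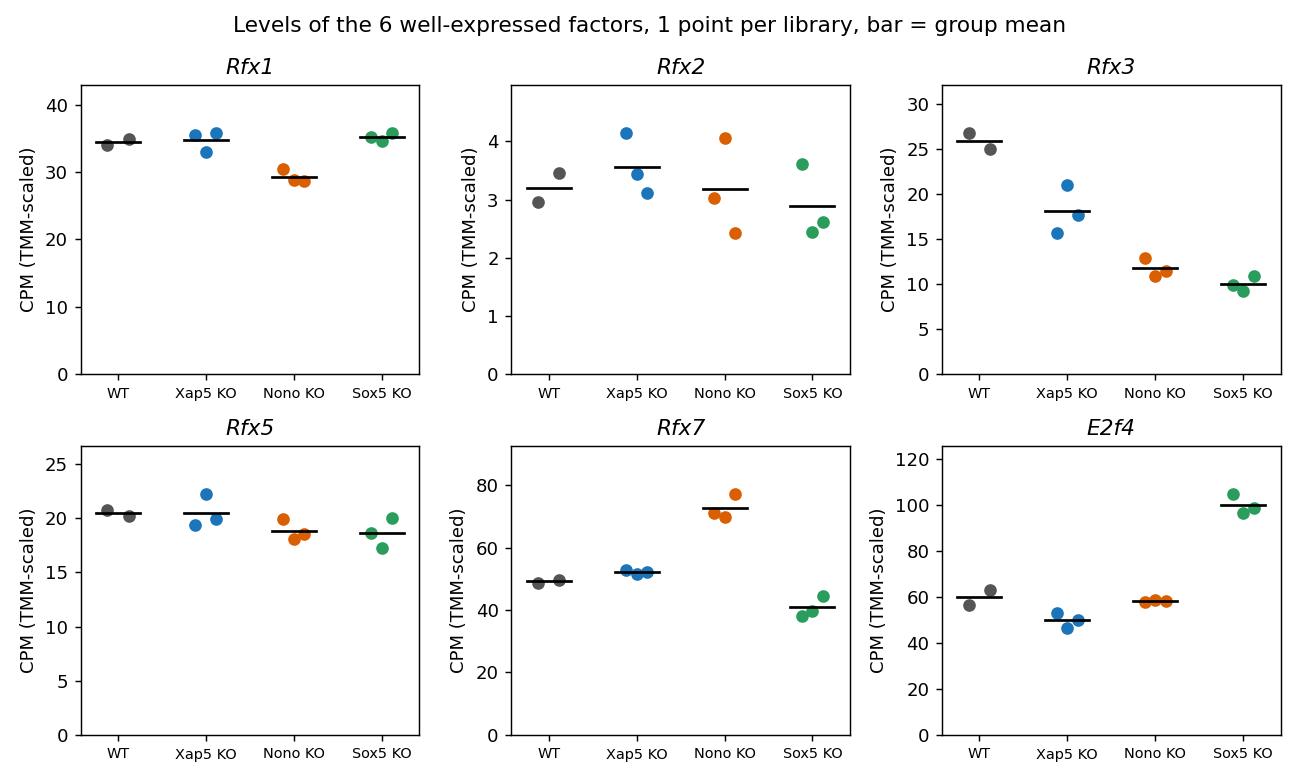
TMM-scaled CPM (y axis, linear from 0) of the 6 well-expressed factors in each of the 11 libraries by genotype (x axis); points are libraries and bars are group means. Rfx3 descends from 24.9 to 26.7 CPM in WT to 9.25 to 10.9 in Sox5 KO, Rfx7 is highest in Nono KO, and E2f4 is highest in Sox5 KO.

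Rfx3, whose product activates genes for the assembly of primary and motile cilia, had 26.7 and 24.9 CPM in the WT libraries. It had 15.7, 20.9 and 17.6 CPM in Xap5 KO, 12.9, 10.9 and 11.4 in Nono KO, and 9.93, 9.25 and 10.9 in Sox5 KO. Every knockout library lay below both WT libraries, and Xap5 KO lay between WT and the other knockouts with no overlap. The log2 fold change was -0.51 in Xap5 KO (SE 0.133, edgeR adjusted p = 0.0032), -1.14 in Nono KO (SE 0.134, edgeR adjusted p = 3.98e-07) and -1.36 in Sox5 KO (SE 0.135, edgeR adjusted p = 1.90e-08). Calls of 1 gene lower in all 3 knockouts covered 7.61% of all tested genes, calls higher in all 3 covered 8.33%, and both together 15.9%.

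The 3 falls in Rfx3 were not equal in size. On the log2 scale, Xap5 KO had a higher Rfx3 level than Nono KO by 0.63 (SE 0.123, edgeR adjusted p = 0.000207), and it exceeded Sox5 KO by 0.85 (SE 0.125, edgeR adjusted p = 4.82e-06). Between Nono KO and Sox5 KO the difference was 0.22 with a 95% interval of -0.04 to 0.49 and was not called (edgeR adjusted p = 0.128), but it was 0.71 and called with the chromosome offset (edgeR adjusted p = 5.10e-05) and -0.21 with the length and GC offset. Rfx3 lies on chromosome 19, where the median log2 fold change of tested genes was 0.06, -0.11 and 0.39 in the Xap5, Nono and Sox5 knockouts. The median over its 20 nearest tested neighbours was 0.17, 0.02 and 0.23. Of all these medians, only that of the chromosome in Nono KO was negative like the change of Rfx3. After correction for the length and GC content of transcripts, the fall in Sox5 KO was -0.77, and it kept its call.

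Rfx1, a broadly expressed family member, had 34.1 and 34.9 CPM in WT, 35.4, 33.0 and 35.7 in Xap5 KO, 30.4, 28.8 and 28.7 in Nono KO, and 35.2, 34.6 and 35.8 in Sox5 KO. Only the Nono KO libraries lay apart, all 3 below every other library. The log2 fold change was -0.23 in Nono KO (SE 0.0824, edgeR adjusted p = 0.0231), 0.01 in Xap5 KO (edgeR adjusted p = 0.940) and 0.03 in Sox5 KO (edgeR adjusted p = 0.789). The call in Nono KO was lost without either WT library, without Nono KO replicate 2 or 3, when only those 2 groups were fitted, and with each offset, down to -0.04 with the length and GC offset. Calls appeared elsewhere, at 0.37 in Xap5 KO with the chromosome offset (edgeR adjusted p = 0.00111) and at 0.26 in Sox5 KO with the length and GC offset (edgeR adjusted p = 0.0096). Rfx1 shares 42 exonic bases with a gene on the opposite strand.

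Rfx2, known from multiciliated cells and sperm formation, was low, with 2.95 and 3.45 CPM in WT. The values were 4.14, 3.43 and 3.12 in Xap5 KO, 3.04, 4.07 and 2.43 in Nono KO, and 3.62, 2.44 and 2.62 in Sox5 KO. All groups overlapped WT. Its log2 fold changes were 0.15 (95% interval -0.43 to 0.74), -0.01 (-0.60 to 0.58) and -0.15 (-0.74 to 0.45), none of them called, and intervals this wide do not show that the level was equal. Rfx4, a ciliary factor of the nervous system, had 0 counts in 8 of 11 libraries, with 7 counts in Xap5 KO replicate 3, 6 in Nono KO replicate 3 and 4 in Sox5 KO replicate 1. A count of 0 allows up to 3 counts, or 0.0681 to 0.102 CPM depending on the library. If the mates of a read pair were counted separately, which the files do not settle, this floor is too low and the lower bounds on folds given further on are too high.

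Promoters of the ciliary RFX genes themselves are shown because the RFX repeat unit GTTGCC lies in them. RefSeq promoter sequences on GRCm38.p6, from 250 bases before to 50 after the start site, matched 8 of the 10 factors. E2f4 and Foxj1 had no sequence there, so the motif searches below do not cover them. On either strand, GTTGCC was present in 4 of these 8, Rfx1, Rfx2, Rfx3 and Mcidas. Among 27025 genes with such a promoter, 14.1% held it, as did 12.5% of 32851 promoters of the same length. The capitals mark GTTGCC, and each line runs 5′ to 3′ along the gene.
Rfx1 (chr8:84066825-84066854, plus strand): tgggtagcaacaGTTGCCccggtgagggaa
Rfx2 (chr17:56831092-56831151, minus strand): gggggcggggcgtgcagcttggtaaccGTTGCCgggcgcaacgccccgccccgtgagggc
Rfx3 (chr19:28011118-28011147, minus strand): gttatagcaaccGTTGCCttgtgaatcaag
Mcidas (chr13:112993646-112993705, plus strand): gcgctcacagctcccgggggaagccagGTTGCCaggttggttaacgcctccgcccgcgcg
The match began 1 base past the start site in Rfx1, 31 bases past it in Rfx3, 116 bases before it in Rfx2 and 195 bases before it in Mcidas. A full X-box, searched as GTTNCC, then 0 to 3 bases, then GGNAAC, was in none of the 8, against 0.936% of all genes. It can overlap GTTGCC, since its first block admits that sequence. The E2F motifs TTTCGCGC and TTTGGCGC and the forkhead motif TGTTTAC were in none of the 8 either, against 0.374%, 0.585% and 4.05% of genes. A match is only a description of the sequence. Of the 3 Rfx genes with GTTGCC, Rfx3 was called lower in all 3 knockouts, Rfx1 in Nono KO and Rfx2 in none.

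Rfx5, the DNA-binding subunit of the complex that activates MHC class II genes, had 20.8 and 20.2 CPM in WT. It had 19.4, 22.2 and 19.9 in Xap5 KO, 19.96, 18.05 and 18.5 in Nono KO, and 18.7, 17.3 and 20.03 in Sox5 KO. The Nono KO and Sox5 KO libraries all lay below WT, by small margins, and Xap5 KO overlapped WT. The log2 fold changes were 0.00 (95% interval -0.23 to 0.23), -0.12 (-0.35 to 0.11) and -0.13 (-0.37 to 0.10), and none was called. Rfx5 shares 1471 exonic bases with a gene on the opposite strand, and without stated strand handling the reads of both cannot be told apart.

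Rfx7, the other member of the RFX5 branch, moved in opposite directions in Nono KO and Sox5 KO. It had 48.7 and 49.7 CPM in WT, 52.8, 51.7 and 52.3 in Xap5 KO, 71.1, 69.7 and 77.2 in Nono KO, and 38.3, 39.8 and 44.5 in Sox5 KO. No knockout group overlapped WT, and Nono KO was the highest and Sox5 KO the lowest. The log2 fold change was 0.56 in Nono KO (SE 0.0810, edgeR adjusted p = 6.31e-06) and -0.27 in Sox5 KO (SE 0.0805, edgeR adjusted p = 0.00659), while 0.09 in Xap5 KO was not called (edgeR adjusted p = 0.403). The direct difference of Nono KO from Sox5 KO was 0.83 (SE 0.0726, edgeR adjusted p = 2.26e-09).

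The lower level of Rfx7 in Sox5 KO turned into a called higher one, 0.26 (edgeR adjusted p = 0.00432), after the same correction. Its longest transcript has 7988 bases and a GC content of 43.9%. The higher level in Nono KO became 0.21 (edgeR adjusted p = 0.0403) after the median of each chromosome was subtracted. Chromosome 9, which carries Rfx7, had a median of 0.35 in Nono KO, and 10 of its 20 nearest tested neighbours were called higher there and 2 lower. Exons of 2 opposite-strand genes share 1014 bases with Rfx7.

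**Figure D2:**
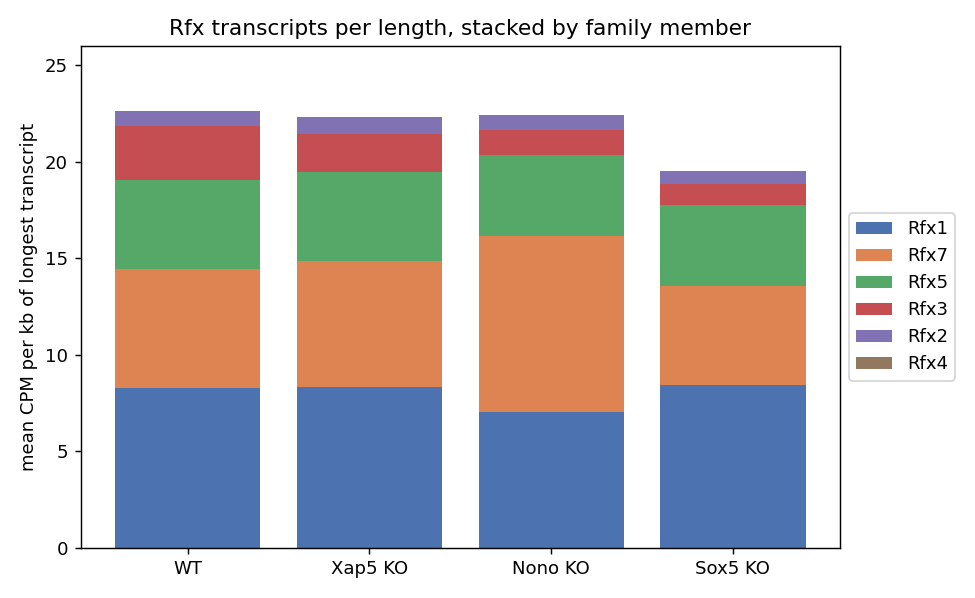
Mean CPM per kilobase of longest transcript (y axis, linear from 0) of the 6 Rfx genes, stacked for each genotype (x axis), without error bars. The total is 19.5 to 22.6 in the 4 groups, the Rfx3 layer is thickest in WT and the Rfx7 layer in Nono KO.

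Seen as a family, the 6 Rfx genes summed to 22.6 ± 0.0740 CPM per kilobase in WT (SD, n = 2). The Xap5, Nono and Sox5 knockouts summed to 22.3 ± 0.163, 22.4 ± 0.494 and 19.5 ± 0.868 (SD, n = 3 each). Rfx3 made up 12.5% ± 0.649 of that sum in WT and 8.85% ± 1.23, 5.71% ± 0.403 and 5.61% ± 0.216 in the Xap5, Nono and Sox5 knockouts. Rfx7 made up 27.2% ± 0.274 in WT and 40.6% ± 1.98 in Nono KO. The sums of WT, Xap5 KO and Nono KO lay close together while the shares of Rfx3 and Rfx7 in them did not. These sums and shares carry no test.

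Foxj1, the master factor of motile cilia, was close to the limit of detection. It had 13 and 41 counts in WT, 28, 0 and 18 in Xap5 KO, 4, 8 and 3 in Nono KO, and 2, 5 and 4 in Sox5 KO. Both WT libraries lay above every Nono KO and Sox5 KO library, while the Xap5 KO libraries ran from 0 counts to a value between both WT libraries. The log2 fold changes of -2.29 in Nono KO (95% interval -4.65 to 0.08, edgeR adjusted p = 0.105) and -2.37 in Sox5 KO (-4.80 to 0.06, edgeR adjusted p = 0.0861) were not called. In the main fit, the gene passed the filter through its WT and Xap5 KO counts. Without Xap5 KO replicate 2, the library at 0, both were called, with edgeR adjusted p = 0.0457 and 0.0350. With only WT and Sox5 KO fitted the edgeR adjusted p was 0.00973. In that fit the gene passed the filter through its WT counts alone, the group where it is high, so this value is no support for a fall.

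Mcidas, which encodes multicilin, had 15 and 21 counts in WT, 7, 3 and 10 in Xap5 KO, 6, 7 and 22 in Nono KO, and 9, 5 and 0 in Sox5 KO. The Xap5 KO and Sox5 KO libraries all lay below WT, and 1 Nono KO library lay above it. None of its log2 fold changes, -1.31, -0.47 and -1.48, was called (edgeR adjusted p = 0.355, 0.750 and 0.265), and their standard errors were 1.07 to 1.12. Gmnc had 5 counts in Nono KO replicate 2 and 0 in the other 10 libraries. Mcidas passed the filter, with at least 10 counts in both WT libraries, 1 of Xap5 KO and 1 of Nono KO. The filter scales its cutoff by depth, so the 9 counts of Sox5 KO replicate 1, a shallower library, also reached it. For both geminin relatives the depth was too low to show a difference of moderate size.

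**Figure D3:**
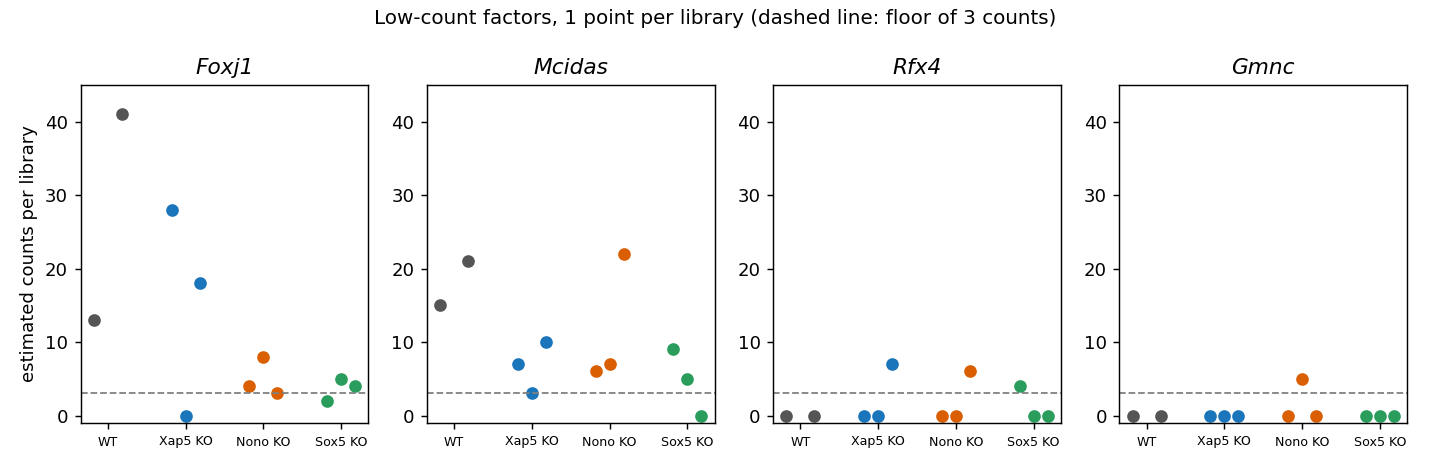
Estimated counts per library (y axis, linear) of Foxj1, Mcidas, Rfx4 and Gmnc by genotype (x axis); points are libraries and the dashed line marks 3 counts, the most that a count of 0 allows. Foxj1 reaches 41 counts in WT and at most 8 in Nono KO and 5 in Sox5 KO.

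E2f4 was the most abundant of the 10 factors per kilobase. It had 56.6 and 63.3 CPM in WT, 53.3, 46.6 and 50.1 in Xap5 KO, 58.1, 58.6 and 58.2 in Nono KO, and 105.0, 96.9 and 98.7 in Sox5 KO. Sox5 KO lay far above the rest, Xap5 KO lay below WT without overlap, and Nono KO lay within the WT range. The log2 fold change was 0.74 in Sox5 KO (SE 0.0768, edgeR adjusted p = 3.69e-08), -0.26 in Xap5 KO (SE 0.0755, edgeR adjusted p = 0.0073) and -0.04 in Nono KO (edgeR adjusted p = 0.690).

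The rise of E2f4 in Sox5 KO was called under each alternative, down to 0.48 with the length and GC offset and 0.50 with the chromosome offset. The fall in Xap5 KO was not: it was -0.19 without WT replicate 2 (edgeR adjusted p = 0.150) and 0.10 with the chromosome offset. E2f4 and Rfx1 lie on chromosome 8, whose median log2 fold change was -0.35, -0.13 and 0.24 in the Xap5, Nono and Sox5 knockouts. Of the 20 tested genes nearest to E2f4, 10 were called lower in Xap5 KO and 0 higher, so the small fall of E2f4 had the direction of its neighbourhood.

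**Figure D4:**
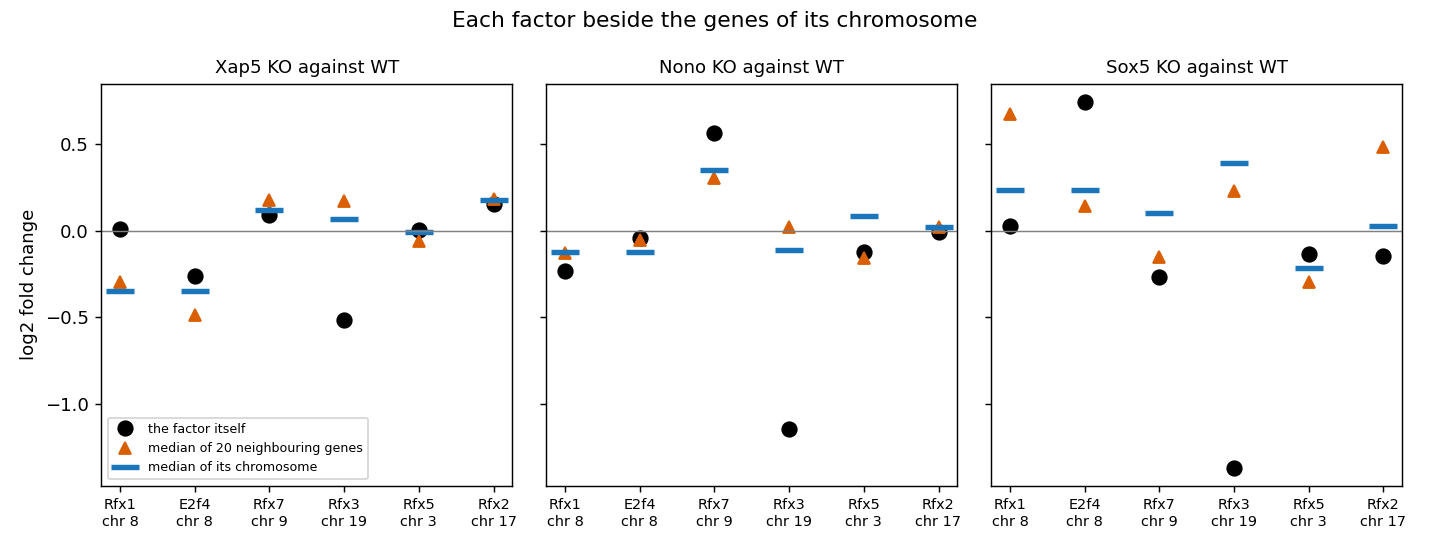
Log2 fold change against WT (y axis) of the 6 well-expressed factors (x axis, with chromosome) in each knockout: black points are the factors, triangles the median of the 20 nearest tested genes and bars the median of the chromosome. Rfx3 lies below its chromosome's median in all 3 knockouts, while E2f4 in Xap5 KO lies above a chromosome 8 median of -0.35.

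Between the knockouts, 4 of the 8 factors were called in Xap5 KO against Nono KO, 3 in Xap5 KO against Sox5 KO and 3 in Nono KO against Sox5 KO. Over all tested genes, 53.0% (27.1% higher, 25.9% lower), 61.6% (31.1% higher, 30.4% lower) and 63.5% (30.9% higher, 32.6% lower) were called. The called factors were Rfx1, Rfx3, Rfx7 and E2f4 in the first, Rfx3, Rfx7 and E2f4 in the second, and Rfx1, Rfx7 and E2f4 in the last. The largest of these differences was that of E2f4, at -1.003 for Xap5 KO against Sox5 KO (SE 0.0682, edgeR adjusted p = 5.76e-11). E2f4 was also lower in Nono KO than in Sox5 KO, at -0.78 (SE 0.0678, edgeR adjusted p = 2.11e-09). Rfx7 was lower in Xap5 KO than in Nono KO, at -0.48 (SE 0.0716, edgeR adjusted p = 9.37e-06).

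**Figure D5:**
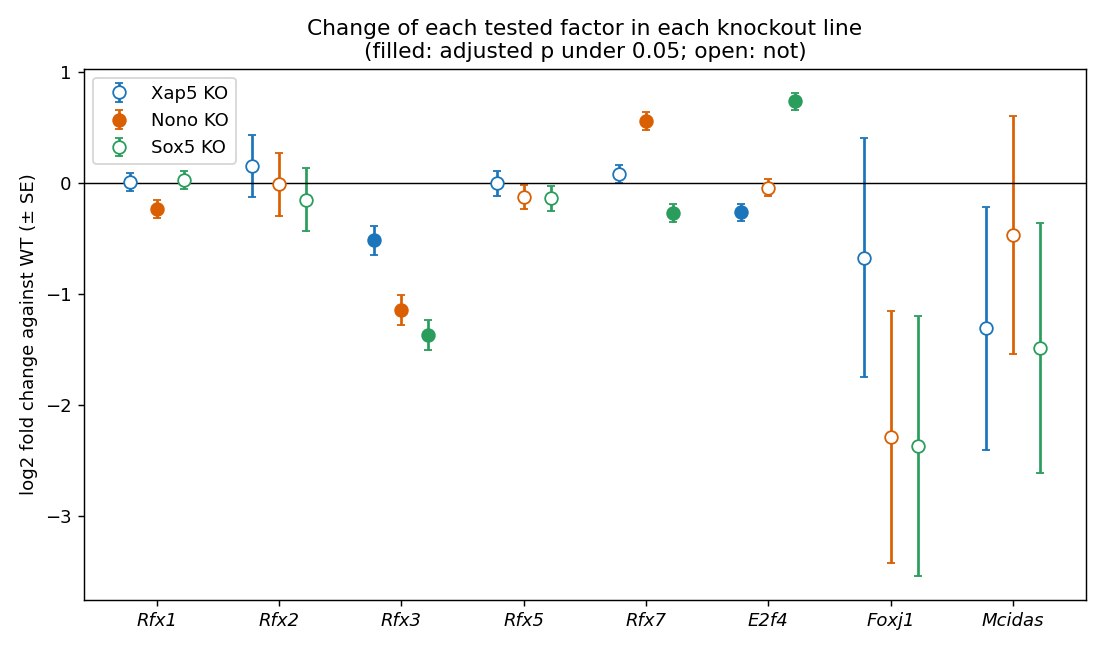
Log2 fold change against WT (y axis) of the 8 tested factors (x axis) in each knockout, with bars of 1 SE from the edgeR fit; filled points are called and open points are not. Rfx3 lies below 0 in all 3 knockouts, and Foxj1 and Mcidas have by far the widest bars.

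The genes that RFX factors regulate or work with were described as lists from general knowledge. Of 22 ciliary genes with X-boxes, all tested, 2 were called higher and 4 lower in Xap5 KO, 1 higher and 3 lower in Nono KO, and 1 higher and 11 lower in Sox5 KO. For comparison, 23.2% of all tested genes were called higher and 22.3% lower in Xap5 KO, 23.5% and 25.1% in Nono KO, and 30.6% and 30.3% in Sox5 KO, shares that serve for each list described here. The medians were -0.04, -0.11 and -0.29, beside medians of all genes of 0.00, -0.02 and -0.01. Alms1, a basal body gene, and Ttc26, an intraflagellar transport gene, were lower in all 3 knockouts like Rfx3.

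Alms1 stood at 78.9 CPM in WT and at 48.7, 49.5 and 21.4 in Xap5, Nono and Sox5 KO, with log2 fold changes of -0.70, -0.67 and -1.88 (edgeR adjusted p = 8.00e-07, 1.02e-06 and 1.02e-13). Ttc26 stood at 24.7 CPM in WT and at 16.2, 19.7 and 17.8, with changes of -0.61, -0.33 and -0.47 (edgeR adjusted p = 0.000526, 0.0389 and 0.00333). In Sox5 KO the largest falls after Alms1 were in Ttc8, a BBSome subunit, at -1.40, and Wdr35, an intraflagellar transport gene, at -1.39. Ift122, another gene of that transport complex, fell by 0.63 in Xap5 KO and by 1.04 in Sox5 KO, both called. Bbs9, another BBSome subunit, fell by 0.47 without Nono and by 0.49 without Sox5. Ift57 went the other way and was higher in Nono KO by 0.37 (edgeR adjusted p = 0.00478). The changes of these list genes were not set beside the medians of their chromosomes. Such medians could be large, for example -0.75 for chromosome 12 in Sox5 KO.

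Full X-boxes, searched as above, were found in 4 of the 18 genes of this list that had a promoter sequence, and they are shown to set beside the single repeat units of the Rfx genes. The capitals mark the whole match.
Ttc26 (chr6:38381468-38381527, plus strand): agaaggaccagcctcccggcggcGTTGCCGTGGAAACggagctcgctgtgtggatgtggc
Ift57 (chr16:49699210-49699269, plus strand): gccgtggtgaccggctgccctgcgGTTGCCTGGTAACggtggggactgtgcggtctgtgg
Bbs7 (chr3:36613474-36613533, minus strand): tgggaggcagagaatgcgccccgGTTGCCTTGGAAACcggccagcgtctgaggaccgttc
Mks1 (chr11:87853168-87853227, plus strand): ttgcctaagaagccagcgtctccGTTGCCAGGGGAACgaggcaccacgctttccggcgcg
Of these, Ttc26 was lower in all 3 knockouts and Ift57 was higher in Nono KO, so genes with a full X-box in this window did not move in 1 direction.

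The genes under FOXJ1 were mostly silent. Of 21 motile cilium genes, 6 passed the filter, and 0 were called higher and 1 lower in Xap5 KO, and 1 higher and 1 lower in each of Nono KO and Sox5 KO. Ccdc39, an assembly factor of the motile axoneme, was the lower one each time, at -0.62, -0.65 and -1.37 on the log2 scale, from 13.1 CPM in WT. The higher ones were Tekt2, a tektin of the axoneme, by 0.61 in Nono KO and Cfap157 by 0.63 in Sox5 KO, and each of these counts went to 0 when either WT library was left out. Its exons overlap those of another gene, and both cannot be told apart without strand. Of 10 further genes of the multiciliated cell programme, 3 passed. Among them Foxj3 fell by 0.25 in Xap5 KO and by 0.76 in Sox5 KO, and Foxj2 fell in Sox5 KO, while Myb and Cdc20b were at 0 in every library.

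For the RFX5 branch, 3 of 5 relatives and complex partners were tested. Rfxap, a subunit of the RFX5 complex, rose by 0.44 in Xap5 KO and 0.66 in Sox5 KO, and Rfxank, the third subunit, fell by 0.33 in Xap5 KO and rose by 0.62 in Sox5 KO. Neither was called in Nono KO. Rfxank shares 1341 exonic bases with a gene on the opposite strand, and the reads of both cannot be told apart without strand. Ciita, the coactivator of the complex, had 25 and 35 counts in WT and 3, 3 and 0 in Sox5 KO. With each Sox5 KO library taken at 3 counts, it was 7.31-fold below the WT mean and 6.41-fold below WT replicate 1. As 3 was also an observed count, these folds are not lower bounds. Ciita shares 329 exonic bases with a gene on the opposite strand. Of a list of 11 MHC and related genes, the coactivator gene Nlrc5 among them, 8 were tested. In Xap5 KO 3 were called higher and 0 lower, in Nono KO 4 higher and 1 lower, and in Sox5 KO 7 higher and 0 lower. Nlrc5 was the 1 lower in Nono KO and was among the 7 higher in Sox5 KO. The class II genes H2-Aa, H2-Ab1 and H2-Eb1 had at most 12 counts in any library and were not tested. Cd74 was tested and not called in any knockout. The medians were 0.21, 0.57 and 1.15, and the shares over all genes called higher were 23.2%, 23.5% and 30.6%. Without either WT library, 1 in place of 3 was higher in Xap5 KO.

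H2-D1 and H2-K1, which encode MHC class I heavy chains, and H2-DMa, a chaperone of class II loading, were higher in all 3 knockouts although Rfx5 was called in none. H2-DMb2, also of class II loading, rose by 0.74 in Nono KO and 1.25 in Sox5 KO. H2-DMa shares 360 exonic bases with a gene on the opposite strand, and Nlrc5 shares 78. H2-D1 stood at 199.1 CPM in WT and 436.1 in Sox5 KO, a log2 change of 1.13 (SE 0.0664, edgeR adjusted p = 4.78e-12). Nlrc5, the coactivator of class I genes, was at 0 counts in all 3 Nono KO libraries, at least 6.98-fold lower than the WT mean of 12 and 34 counts and at least 3.88-fold lower than WT replicate 1 alone, and it was higher in Sox5 KO by 1.93 (SE 0.653, edgeR adjusted p = 0.0157). Ptprc, a leukocyte marker, had 243, 300 and 242 counts in Nono KO, at most 16 in any other library and 0 in all 3 Sox5 KO libraries. Of the 10 blood and endothelial markers, 3 were tested, and Ptprc was the 1 called in Nono KO. Cd3e was at 0 in every library, not only in Nono KO. The part of blood cells in the MHC counts of Nono KO was not tested.

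E2F4 works within the DREAM complex, and geminin and its relatives act on replication licensing. All 12 genes of a joint list of E2F4 and geminin family partners were tested. In Xap5 KO 3 were higher and 3 lower, in Nono KO 0 higher and 7 lower, and in Sox5 KO 2 higher and 5 lower, beside 22.3%, 25.1% and 30.3% of all genes lower. The 7 lower in Nono KO became 3 without Nono KO replicate 3 or WT replicate 1 and 4 without WT replicate 2, and the 5 in Sox5 KO became 3 without WT replicate 2. Cdt1, the replication licensing factor that geminin inhibits, was lower in all 3, at -0.78, -1.16 and -0.25. Rbl2, the pocket protein p130 that pairs with E2F4 in resting cells, fell by 0.68 in Xap5 KO and by 0.58 in Nono KO, while it had -0.01 in Sox5 KO, where E2f4 itself was higher. Gmnn, which encodes geminin, rose by 1.02 in Xap5 KO and 0.75 in Sox5 KO. Of the DREAM subunits, Lin9 rose by 0.71 in Xap5 KO, Lin52 fell by 0.62 in Sox5 KO, and Lin54 rose by 0.37 in Xap5 KO and fell by 0.41 and 0.57 in the Nono and Sox5 knockouts. Tfdp2, a dimer partner of E2F proteins, fell by 0.27 in Nono KO and 0.72 in Sox5 KO. Of the 7 other E2F and pocket genes, 4 were higher and 1 lower in Xap5 KO, 1 higher and 1 lower in Nono KO, and 0 higher and 1 lower in Sox5 KO. E2f8 (1.02), E2f3 (0.68), Rb1 (0.65) and E2f1 (0.41) were the higher ones in Xap5 KO, and in Nono KO Rb1 rose by 0.71 and E2f1 fell by 0.43. Rbl2 shares 693 and 892 exonic bases with genes on the opposite strand, and Rb1 shares 488 and 408.

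The lower gene in Xap5 KO and in Sox5 KO was E2f6, a repressive E2F that acts without pocket proteins. It had 179 and 202 counts in WT and 139, 142 and 46 in Nono KO, but 0, 2 and 0 in Xap5 KO and 0, 0 and 0 in Sox5 KO. Compared with the WT mean, the level was 59.5-fold lower without Xap5 and at least 46.7-fold lower without Sox5, with the floor taken as 3 counts per library. Against WT replicate 1 alone these folds were 58.6 and 45.9. As Xap5 KO had an observed count of 2, its fold is not a strict lower bound. Its log2 fold change in Nono KO was -0.73 and was not called (edgeR adjusted p = 0.210). E2f4, in contrast, was detected at 1916 counts or more in each library.

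Of 17 cell cycle genes that the E2F4 repressor complex is known to bind, 10 were called higher and 1 lower in Xap5 KO, 6 higher and 3 lower in Nono KO, and 9 higher and 3 lower in Sox5 KO. The medians were 1.12, 0.26 and 0.49, and the shares over all genes were 23.2% higher and 22.3% lower, 23.5% and 25.1%, and 30.6% and 30.3%. In all 17 of these genes Nono KO replicate 3 was the lowest library of its group, for example 31.1 CPM of Ccna2 against 44.6 and 56.1. Without it the counts were 13 higher and 1 lower in Xap5 KO, 9 and 3 in Nono KO, and 12 and 4 in Sox5 KO. Without WT replicate 2, 3 were higher in Nono KO and 5 in Sox5 KO. Plk1, Ccnb1, Ccnb2 and Aurkb, which act in mitosis, were higher in all 3 knockouts. Plk1 had log2 fold changes of 1.36, 0.77 and 1.17 (edgeR adjusted p = 8.30e-07, 0.000500 and 2.81e-06), and Ccnb1 of 1.34, 0.99 and 0.74 (edgeR adjusted p = 1.01e-07, 4.97e-06 and 0.000103). Mybl2 (1.68) and Cdc6 (1.49) had the largest rises in Xap5 KO. Ccna2 rose by 0.78 in Nono KO, and Mcm5, a subunit of the replicative helicase, by 0.79 in Sox5 KO. The 4 mitotic genes are named because they were called alike in all 3 knockouts, and Aurkb in Nono KO was near the threshold (edgeR adjusted p = 0.0489). E2f4 itself was called lower in Xap5 KO and higher in Sox5 KO, and was not called in Nono KO. A link between its level and these genes was not tested.

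For each factor called in a knockout, the genes with the most similar pattern were found by Pearson's correlation of log2 CPM over the 11 libraries, which share their grouping, so the values are descriptions. Nearest to Rfx3 were Dpy19l3 (0.975), Smarcad1 (0.974) and Zfp628 (0.969), none on chromosome 19. Nearest to Rfx7 were Pi15 (0.989), Prkci (0.987) and Rdx (0.987), of which Rdx lies on chromosome 9 as Rfx7 does. Nearest to E2f4 were Csnk2a2 (0.995) and Ano8 (0.991), both on chromosome 8 with it, and Degs1 (0.990). Nearest to Rfx1 were Phf21b (0.980), Ccnj (0.972) and Sinhcaf (0.968).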

How the data were processed

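The authors deposited 1 table of gene-level estimated counts in whole numbers, per the file headers; entries of 2 (3302) outnumbered entries of 1 (857). Per the submitters' processing notes, HISAT2 2.1.0, StringTie 1.3.3b and DESeq2 1.12.4 were used with build GRCm39. The annotation and strand handling are not given in the sources used here. Ift57, Foxj2, E2f8, Ccna2 and Plk1 also share exonic bases with opposite-strand genes. Chromosomes, lengths, GC content and overlaps came from GENCODE M21 (GRCm38), which matched 21540 of 21684 IDs, and promoters from RefSeq on GRCm38.p6.

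All 11 libraries were fitted together with edgeR 4.0.16 in R 4.3.3 (TMM scaling, minimum count 10, minimum total 15, 1 mean per group), and each of 6 contrasts was tested with the quasi-likelihood test, Benjamini-Hochberg adjusted over 13332 genes. CPM uses TMM-scaled library sizes. Depth was 30205878 to 43498383 counts, and the common biological coefficient of variation was 10.6%. Floors of 3 counts cover counting error only, since PCR copies are not independent molecules. The fit was tested on simulated data. The members and lists were chosen with earlier results of these data known. All members are named. Of each other list except the cell type markers, the genes named are those called alike in all 3 knockouts and up to 3 per knockout with the largest called change. Ptprc counts, the chromosome Y sum and list counts without Nono KO replicate 3 were added after their values were seen. Alternatives were other scalings, filters and tools (DESeq2, limma-voom), a replicate block, each library left out, and offsets for length with GC and for chromosome.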

Additional observations from a re-analysis of the deposited data

Results flagged for a closer look

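Both results here were called in opposite directions against WT in 2 knockout lines, and the direct difference between the lines was itself called. For Rfx7, Nono KO was above WT and Sox5 KO below it, and the difference of Nono KO from Sox5 KO was 0.83 on the log2 scale (edgeR adjusted p = 2.26e-09). For E2f4, Xap5 KO was below WT and Sox5 KO above it, and the difference of Xap5 KO from Sox5 KO was -1.003 (edgeR adjusted p = 5.76e-11). The Rfx7 difference ranged from 0.36 to 0.90 and the E2f4 difference from -1.06 to -0.39 over 21 alternatives, called in each. The opposite directions against WT held less widely: Rfx7 in Sox5 KO was a called 0.26 with the length and GC offset, and E2f4 in Xap5 KO was 0.10 with the chromosome offset and lost its call without WT replicate 2 (-0.19). The rank-gap test for a single outlying library was not applied to groups this small.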

How the results depend on the processing

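The 48 fold changes of the 8 tested factors were recomputed under 21 alternatives, giving 990 values. Of these, 956 kept their direction and side of the threshold, whatever the change in size, or were uncalled in both fits and moved by at most the SE of the main fit. Of the calls against WT, 5 of 8 held throughout, among them Rfx3 in all 3 knockouts, and of those between knockouts 6 of 10. With the chromosome offset, the sign turned for Rfx1 in Sox5 KO (-0.21), in Xap5 KO against Sox5 KO (0.59) and in Nono KO against Sox5 KO (0.0893), for Rfx5 in Nono KO against Sox5 KO (-0.28), and for E2f4 in Xap5 KO (0.10) and in Xap5 KO against Nono KO (0.0352). With the length and GC offset it turned for Rfx7 in Sox5 KO (0.26) and in Xap5 KO against Sox5 KO (-0.12). The cause was not tested. With library totals as the only scaling, the median over all genes moved to -0.05, -0.18 and -0.12 in the Xap5, Nono and Sox5 knockouts, and the fit called 5 factors in Nono KO in place of 3. With each library left out in turn, 1 to 2 factors were called in Xap5 KO (1 without WT replicate 2), 2 to 4 in Nono KO and 3 to 4 in Sox5 KO. Another 47 values changed sign where neither value was called.

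The replicate numbers of the labels did not pair the libraries: over 15 pairs of libraries with the same number, the correlation of their deviations from the group means ran from -0.0226 to 0.0465. A fit with the replicate number as a block called 2, 3 and 3 factors in Xap5, Nono and Sox5 KO and 4, 3 and 3 between the knockouts, as without it. Depth limits Foxj1, Mcidas, Rfx4 and Gmnc, which had at most 41 counts in any library.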

Other observations

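The printed promoter stretches of Rfx1, Rfx2 and Rfx3 showed, just before GTTGCC, an inverted partner in the order opposite to that of an X-box. The arrangement was noticed in these sequences and then searched as GNAACNGTTGCC on both strands, so its presence in the 3 genes is a description and no test. It was present in 3 of the 8 factors with a promoter sequence (Rfx1, Rfx2 and Rfx3) and in 25 of 32851 promoters, or 0.0761%. It was in 0 of the 18 ciliary genes with X-boxes that had a promoter sequence, although 11 of those held GTTGCC. Each match includes GTTGCC by construction. Rfx1, Rfx2 and Rfx3 did not move together in the knockouts, as Rfx3 alone was lower in all 3.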
